A study of Arabidopsis thaliana with 6 samples.

Results

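Some introns of Arabidopsis already kept many reads in wild-type (WT) seedlings, and 855 of them, in 731 genes, are described here together with their change in acinus-2 pinin-1 seedlings. They were chosen from 120998 introns, of which 120956 are nuclear, by 3 limits on the WT libraries alone. An intron had to hold 30 or more reads summed over the 3 WT libraries, none of them shared with another gene or place by the deposited column. Its reads per base also had to lie between 0.2 and 1 times the reads per base of its 2 neighbouring exons together. This value is called the ratio below, and a ratio of 1 means that the intron held as many reads per base as its exons. A read that joins the 2 exons counts in both of them. The ratio is thus no measure of the share of RNA that keeps the intron. As the WT reads chose the introns, their WT ratio and reads are descriptions and were not tested.

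The double mutant carries the T-DNA alleles acinus-2, in AtACINUS (AT4G39680), and pinin-1, in AtPININ (AT1G15200), and both genotypes are in the Col-0 ecotype. RNA came from whole seedlings grown in continuous light, for 12 days by the labels and somewhat longer by the methods. There were 3 libraries of acinus-2 pinin-1 (replicates 6, 7 and 12) and 3 of WT (replicates 2, 4 and 5), named as 3 biological replicates in the methods. The double mutant is 1 combination of alleles and its seedlings are dwarfed and pale, so that a different mix of cell types and a different amount of RNA per cell cannot be told apart.

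AtACINUS and AtPININ are related to proteins that, in animals, join the exon junction complex and take part in splicing. An intron is retained when the spliceosome does not remove it from an RNA that is otherwise processed. In plants, intron retention is the most common form of alternative splicing. A retained intron in coding sequence often brings a stop codon into frame, and such RNA can be degraded by nonsense-mediated decay or be held in the nucleus. Introns within the 5′ untranslated region (UTR) leave the protein sequence as it is.

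Of the 855 introns, 840 were placed on the TAIR10.1 reference and 765 equal an intron of its annotation. The sequences below are read from 5′ to 3′ from that reference, on the strand of the gene. Capitals mark the first 2 and the last 2 bases of the intron and the first stop codon that is in frame with the upstream coding exons. Introns are counted from the 5′ end of the gene. The first 6 introns passed the test of change between the genotypes, AT1G77800 intron 6 and AT5G46190 intron 6 keep the reading frame, and AT4G05631 intron 5 had no spliced read in any library.
BGLU8 intron 8 (chr3:23215790-23215853, plus strand): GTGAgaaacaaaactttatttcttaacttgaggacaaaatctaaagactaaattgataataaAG
SULTR1;2 intron 12 (chr1:29332622-29332733, plus strand): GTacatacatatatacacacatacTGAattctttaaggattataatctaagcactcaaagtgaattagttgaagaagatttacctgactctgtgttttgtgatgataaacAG
AT3G27340 intron 3 (chr3:10122419-10122531, plus strand): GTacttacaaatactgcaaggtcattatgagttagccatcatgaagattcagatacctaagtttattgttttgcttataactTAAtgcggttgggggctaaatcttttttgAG
RVE8 intron 4 (chr3:2947404-2947521, plus strand): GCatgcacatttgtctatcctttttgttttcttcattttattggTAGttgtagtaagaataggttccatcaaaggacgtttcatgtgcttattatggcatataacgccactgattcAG
PBCP intron 7 (chr2:12880157-12880226, minus strand): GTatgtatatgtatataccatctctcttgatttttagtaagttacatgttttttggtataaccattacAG
RPP4 intron 4 (chr4:9489852-9489967, minus strand): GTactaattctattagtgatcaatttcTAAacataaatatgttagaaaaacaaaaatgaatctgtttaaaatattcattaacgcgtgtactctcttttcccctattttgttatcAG
AT1G77800 intron 6 (chr1:29256235-29256441, plus strand): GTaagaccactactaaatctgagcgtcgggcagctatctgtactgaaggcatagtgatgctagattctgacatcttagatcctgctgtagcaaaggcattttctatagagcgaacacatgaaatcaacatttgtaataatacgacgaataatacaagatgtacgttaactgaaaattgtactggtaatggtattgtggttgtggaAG
AT5G46190 intron 6 (chr5:18723567-18723701, minus strand): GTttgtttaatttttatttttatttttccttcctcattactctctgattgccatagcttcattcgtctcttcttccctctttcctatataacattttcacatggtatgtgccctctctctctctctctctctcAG
AT4G05631 intron 5 (chr4:2991781-2991855, minus strand): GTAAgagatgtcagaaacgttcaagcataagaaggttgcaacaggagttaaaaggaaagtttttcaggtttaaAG

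In BGLU8 intron 8 and AT4G05631 intron 5 the stop codon starts at the second base of the intron, so that it overlaps the first 2 bases. PBCP intron 7 holds no stop codon in frame, but its length of 70 bases is no multiple of 3. RVE8 intron 4 starts with GC in place of GT. It is 1 of 15 such GC-AG introns, 1.79% of the placed introns retained in WT, against 0.893% of the introns with as many reads and a lower ratio.

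Mapped reads numbered 25448749 to 30591293 per library for acinus-2 pinin-1, against 23104163 to 33595940 for WT. The last 3 of the 6 exons of AtACINUS held 0, 1 and 1 reads in the mutant libraries, against 853, 1300 and 1255 in the WT libraries. The first 8 of the 11 exons of AtPININ held 380, 344 and 435 reads in the mutant, against 704, 938 and 964 in WT, while its last 3 exons held more reads in every mutant library. Reads on introns made up 1.04% to 1.10% of exon and intron reads in the mutant and 0.969% to 0.983% in WT. The 855 introns took 9.89% to 10.2% of the nuclear intron reads of a mutant library, against 10.8% to 11.6% of those of a WT library.

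The WT ratio of the 855 introns had a median of 0.371. It lay between 0.2 and 0.3 for 302 introns, between 0.3 and 0.5 for 263 and between 0.5 and 1 for 290, of which 96 were at 0.8 or above. Among all 25492 introns with enough reads to be tested, the median WT ratio was 0.0366. The reads were unevenly spread. The median intron held 55 WT reads, 247 introns held fewer than 40, and the 20 introns with the most reads held 20.4% of all 83264 reads. With counts this low, the coefficient of variation of the ratio within a genotype had a median of 22.4% in acinus-2 pinin-1 and 20.8% in WT.

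The lower limit of 0.2 cut through a continuous range. Just inside it lay GIF2 intron 1, AT2G29210 intron 5, AT1G01080 intron 3 and AT5G01960 intron 4, and just outside it DWF1 intron 1 and AT3G59780 intron 4, each at a WT ratio that rounds to 0.2. At the upper limit, AT1G13350 intron 1 had a WT ratio of 0.999, while AT5G28340 intron 3 and AT4G11670 intron 21 were left out at 1.01. The next highest inside the limit were ALPHA-SNAP1 intron 2, AT1G77800 intron 20 and AT4G34140 intron 4. GIF2 intron 1 also lies over an exon of another gene, AT1G04007, as do 44 of the placed introns (5.24%). Their reads may come from either gene.

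**Figure D1:**
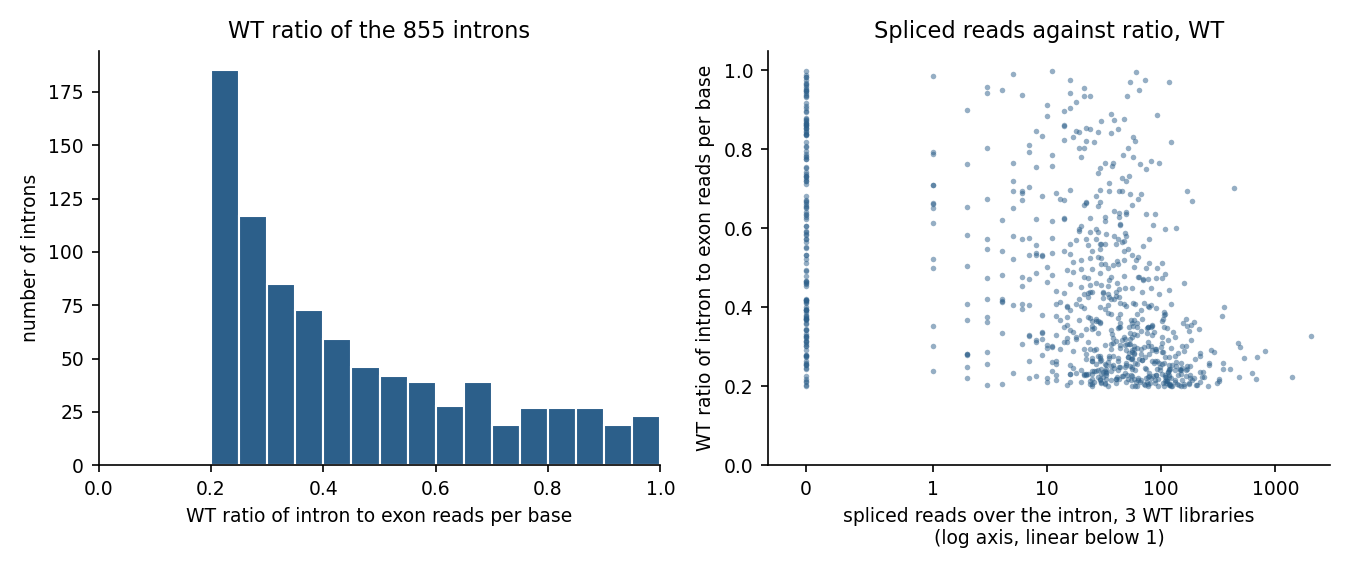
Introns retained in WT by their ratio of intron to exon reads per base over the 3 WT libraries. Left, the number of introns in steps of 0.05; right, each point is 1 intron, with its spliced WT reads on a log axis (linear below 1) and its ratio. The introns crowd towards the lower limit of 0.2, and 154 of them stand at 0 spliced reads.

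Most of the genes had a single such intron. Of the 731 genes, 644 held 1, 62 held 2 and 25 held 3 or more. In 574 of the 644 genes the intron was 1 of at least 2 introns. The 731 genes held 4898 other introns with 30 or more WT reads on their 2 neighbouring exons. These had a median WT ratio of 0.0166, and 90% of them lay below 0.118. As the rule set the limit between the 855 introns and these, their difference is no result.

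Reads that join the 2 neighbouring exons show that an intron is also removed. The rule set no limit on them, but they count among the exon reads of the ratio. More spliced reads thus lower the ratio, so that the comparisons by ratio in this paragraph are descriptions. Of the 855 introns, 134 had 100 or more spliced reads over the 3 WT libraries, 470 had 10 to 99, 97 had 1 to 9 and 154 (18%) had none. Among introns with as many WT reads and a lower ratio, 2.97% had none. The introns without spliced reads had a median WT ratio of 0.592, against 0.348 for those with spliced reads, and 148 of the 154 had none in acinus-2 pinin-1 either. In WT, 32 of the 154 were bridged by spliced reads between more distant exons and 60 by spliced reads with shifted ends, with some bridged in both ways, and 66 had neither. The WT libraries thus held no spliced read of these kinds for the 66 introns.

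Other features are set beside those of other introns here, and of these the rule used only the length, through the reads per base. Of the 855 introns that were placed, 282 (33.6%) lie within an exon of another annotated transcript of the same gene, against 13.7% of the introns with as many WT reads and a lower ratio and 10.5% of all tested introns. The splice sites of the introns retained in WT resembled the average site less. On a score that sums log2 odds over the letters at the site, taken from all annotated introns, the median was 5.77 at the 5′ site and 5.83 at the 3′ site, against 6.80 and 6.43 for the introns with lower ratio. The introns without spliced WT reads scored 4.09 at the 5′ site and 3.63 at the 3′ site, against 6.04 and 5.99 for those with 10 or more. These medians include placed introns that equal no annotated one. An annotated intron was equalled by 765 of the 840 placed introns retained in WT and 2491 of the 2575 with lower ratio. Among the 149 placed introns without spliced WT reads, 119 did so. The part of the others in these scores was not tested. The median length of the 855 introns, 144 bases, was close to the 140 bases of all tested introns. It was below the 317 bases of the introns with lower ratio. The median GC content of the introns retained in WT was 34.6%, against 33.2% for the introns with lower ratio.

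Among the introns that equal an annotated one, 635 (83.0%) lie between coding exons, 89 (11.6%) in a 5′ UTR and 28 (3.66%) in a 3′ UTR. For the introns with lower ratio these shares were 89.2%, 8.59% and 1.73%. Of the 635 coding introns, 575 (90.6%) bring a stop codon into frame, at a median of 29 bases into the intron. In 298 of these (51.8%) the stop codon lies within the first 30 bases. A length that is a multiple of 3 together with no stop codon in frame was found in 14 introns (2.20%), against 0.450% of the coding introns with lower ratio and 2.02% of all tested coding introns. The introns with lower ratio were longer, at a median of 317 bases, and the part of length in these shares was not tested. Introns of this kind, called exitrons where they lie within a coding exon, can be kept without ending the protein. Of the 14, 10 are exonic in another annotated transcript. The 4 with the most WT reads were AT1G77800 intron 6, AT5G46190 intron 6, AT2G48060 intron 9 and TPS12 intron 6, in genes of a PHD finger protein, a KH-domain RNA-binding protein, a protein annotated as a piezo-type mechanosensitive channel and a terpenoid synthase.

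**Figure D2:**
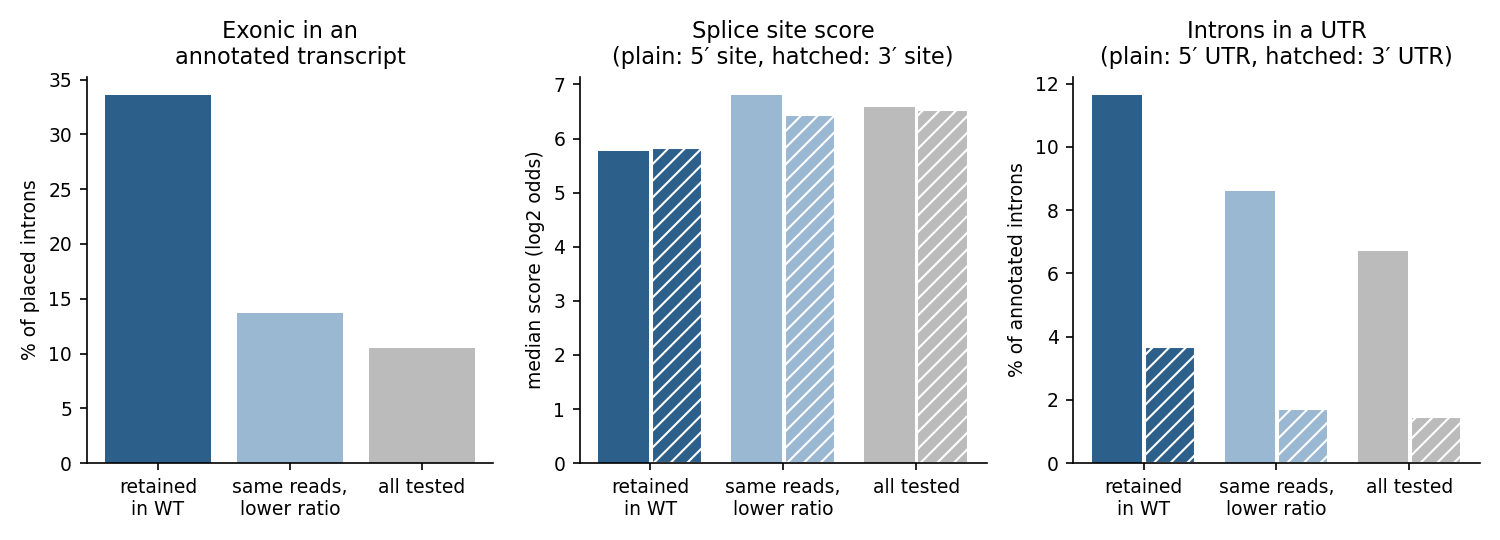
Features of the introns retained in WT, of introns with as many WT reads and a lower ratio, and of all tested introns. Left, the share of placed introns that are exonic in another annotated transcript. Middle, the median splice site score of all placed introns. Right, the share of annotated introns in a 5′ or 3′ UTR. The introns retained in WT have the highest share in annotated transcripts, at 33.6%, and the lowest splice site scores.

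AT1G77800 intron 6 held 110, 70 and 110 reads in the mutant libraries, against 74, 126 and 120 in WT. Its spliced reads were 0 in each mutant library, against 1, 3 and 2 in WT. Few reads showed it to be removed in either genotype, and its log2 fold change of 0.18, with a standard error (SE) of 0.24, did not pass the test (adjusted p = 0.855, edgeR). AT5G46190 intron 6 had a ratio of 0.570 ± 0.131 in the mutant and 0.610 ± 0.0711 in WT (SD, n = 3 each). AT2G48060 intron 9 had 0.746 ± 0.134 in the mutant and 0.693 ± 0.215 in WT. Reads over TPS12 intron 6 were 4, 6 and 4 in the mutant, against 15, 23 and 35 in WT, with no spliced read in any library and too few exon reads for a test. Its gene fell by 1.92 on the log2 scale.

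By WT reads, the 6 leading introns were GRP8 (AT4G39260, CCR1 in the reference) intron 1, AT1G66260 intron 3, UAP56a intron 6, DI19 intron 3, AT4G05631 intron 8 and AT1G60200 intron 1. GRP8 is a glycine-rich RNA-binding protein whose RNA level is under the control of the circadian clock. AT1G66260 is annotated as a protein with an RNA recognition motif and AT1G60200 as a splicing factor with a PWI domain, and UAP56a is a DEAD-box helicase that works in splicing and export of mRNA. DI19 is a zinc finger protein known from the response to drought.

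GRP8 intron 1 held 467, 409 and 503 reads in the mutant libraries, against 429, 633 and 644 in WT. Its ratio was 0.254, 0.218 and 0.238 in the mutant, against 0.297, 0.334 and 0.347 in WT. All 3 mutant libraries thus lay below the WT libraries, but the log2 fold change of -0.44 (SE 0.18) did not pass the test (adjusted p = 0.29, edgeR). UAP56a intron 6 went the other way, with ratios of 0.338, 0.365 and 0.373 in the mutant and 0.247, 0.204 and 0.232 in WT. The groups did not overlap here either, and the log2 fold change was 0.61 (SE 0.20, adjusted p = 0.14). With spliced reads over the intron as the reference in place of exon reads it became 0.96 and passed the test.

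In the other 4 of the 6 the genotypes overlapped. DI19 intron 3 had ratios of 0.265 ± 0.0329 in the mutant and 0.271 ± 0.0255 in WT (SD, n = 3 each). Next to 693 spliced reads over DI19 intron 3 itself, the WT libraries held 1226 with a shifted end, so that its region is spliced in more than 1 way. AT4G05631 intron 8 had ratios of 0.529 ± 0.0567 in the mutant and 0.532 ± 0.0301 in WT, with no spliced read in any of the 6 libraries. AT1G66260 intron 3 is a GC-AG intron of 745 bases, with log2 fold change -0.19 (SE 0.20), and AT1G60200 intron 1 had -0.18 (SE 0.20).

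Between the genotypes, the introns retained in WT had nearly the same distribution of ratios. The median ratio of the 855 introns was 0.392, 0.405 and 0.391 in the acinus-2 pinin-1 libraries, against 0.377, 0.377 and 0.370 in the WT libraries. Of the 855, 803 had enough exon reads to be tested in edgeR with the quasi-likelihood test. Their median log2 fold change was -0.01, with quartiles of -0.29 and 0.28, against a median of -0.03 over all 25492 tested introns. Introns with as many WT reads and a lower ratio had a median of -0.20. The median standard error of a single intron was 0.37, so that for most introns only changes close to 2-fold or larger could be told from the spread between libraries.

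The WT reads that chose the introns also enter this comparison, so that its counts and medians are descriptions. The choice was therefore repeated with 2 WT libraries and 20 or more reads, and the third WT library was set against the mutant. With WT replicate 2, 4 or 5 held out, 939, 836 and 837 introns were chosen. Their median log2 fold changes against the library not used were 0.01, 0.06 and 0.09. Introns with a lower ratio, chosen in the same way, had medians of -0.25, -0.15 and -0.17. The same limits applied to the mutant libraries gave 1041 introns, of which 579 were shared. These are 67.7% of the introns retained in WT and 55.6% of those retained in acinus-2 pinin-1. Of the 276 introns that met the limits only in WT, 199 held fewer than 30 reads in the mutant libraries. With 30 or more mutant reads, 48 had a mutant ratio under 0.2 and 29 a mutant ratio above 1.

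When an adjusted p under 0.05 was joined with a change of over 2-fold and, in the genotype with more retention, an RPKM of the intron above 1 and a ratio above 5%, 9 of the 803 introns increased in acinus-2 pinin-1 and 5 decreased. Over all tested introns these thresholds call 0.851% and 0.051%. These shares come from unlike introns. Introns with a high WT ratio have little room for a 2-fold rise. The introns retained in WT meet the limit of 5% for a decrease by the rule, and a choice by high WT values favours a fall. The tested ones held a median of 56 WT reads, against 10 over all tested introns. At an adjusted p under 0.05 alone the counts were the same 9 and 5, against 0.961% and 0.18% of all tested introns. At an unadjusted p under 0.05, 45 (5.6%) were higher and 44 (5.48%) lower, against 6.22% and 4.88%. The genotypes did not overlap, with the mutant higher, in 101 introns (12.6%) and, with the mutant lower, in 88 (11%), against 8.94% and 8.07% of all tested introns. With DESeq2 and the same terms none of the 14 passed (adjusted p between 0.43 and 1), while all 14 had an unadjusted p under 0.05. DESeq2 called 13 increases and 1 decrease among all tested introns. With spliced reads as the reference in place of exon reads, 24 of the 640 introns tested in that fit increased and 3 decreased. The share over all introns of that fit is not given here, so that these counts are no result about the introns retained in WT. Without acinus-2 pinin-1 replicate 12 no decrease passed, without its replicate 7 there were 2 and without WT replicate 5 there were 3, while the increases stayed between 6 and 7 with any 1 library left out. With 3 libraries per genotype, an exact permutation test of a single intron cannot give a p below 0.1, and p-values here measure the spread between these libraries.

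**Figure D3:**
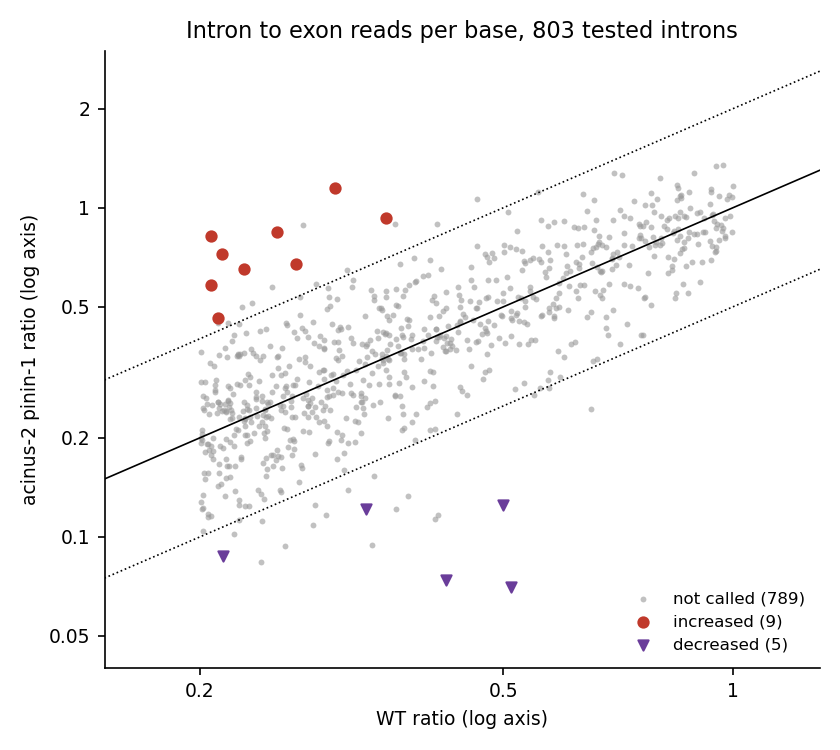
Ratio of intron to exon reads per base in acinus-2 pinin-1 (log axis) against WT (log axis) for the 803 tested introns, with reads summed over the 3 libraries of each genotype. The solid line marks equal ratios and dotted lines a 2-fold difference; circles are the 9 increases and triangles the 5 decreases. Most introns lie along the line of equal ratios. The increases lie at WT ratios of 0.350 or below, and introns with a high WT ratio have little room for a 2-fold rise.

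The 9 increases had WT ratios between 0.206 and 0.350 and mutant ratios between 0.462 and 1.15. As a high WT ratio leaves little room for a 2-fold rise, this range is a description. Of the 263 tested introns with WT ratios of 0.5 to 1, 0 were over 2-fold higher and 4 over 2-fold lower. Of the 294 with WT ratios of 0.2 to 0.3, 10 were over 2-fold higher and 9 over 2-fold lower. Summed over the 3 libraries of a genotype, all 9 increases also had fewer spliced reads in the mutant. In 6 of them the RNA level of the gene was lower too, by log2 fold changes of -1.43 (AT4G10060), -1.02 (RVE8), -1.005 (PBCP), -0.88 (BGLU8), -0.47 (NHX5) and -0.39 (LPP3). The part of the RNA level in these spliced reads was not tested. In SULTR1;2, AT3G27340 and FLK the counts of spliced reads, not scaled to depth, overlapped between the genotypes. They were 36, 33 and 51 in the mutant, against 34, 52 and 66 in WT, for SULTR1;2 intron 12. For AT3G27340 intron 3 they were 35, 34 and 52 against 44, 57 and 66, and for FLK intron 1 they were 33, 35 and 34 against 27, 50 and 56. SULTR1;2 encodes a high-affinity sulfate transporter of the root, and its last intron, intron 12, held 97, 83 and 139 reads in the mutant libraries, against 17, 22 and 32 in WT. The ratio was 1.32, 1.01 and 1.13 in the mutant, against 0.301, 0.279 and 0.318 in WT, so that the lowest mutant library lay more than 3 times above the highest WT library. The log2 fold change was 1.85 (SE 0.27, adjusted p = 8.8e-06, edgeR), with the RNA level of the gene at a log2 fold change of -0.02.

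BGLU8, a member of the beta-glucosidase family, had ratios over intron 8 of 1.02, 0.726 and 0.745 in the mutant, against 0.255, 0.106 and 0.268 in WT. The log2 fold change was 1.91 (SE 0.39, adjusted p = 0.0027). Spliced reads over this intron were 10, 14 and 15 in the mutant, against 30, 44 and 45 in WT, next to an RNA level of the gene of 16.3 CPM in the mutant and 29.99 CPM in WT. AT3G27340, annotated as a Myb domain protein, had ratios over intron 3 of 0.811, 0.941 and 0.811 in the mutant, against 0.188, 0.254 and 0.3 in WT. Its log2 fold change was 1.66 (SE 0.32, adjusted p = 0.0018), and its RNA level differed by 0.02 on the log2 scale. Next to 167 spliced reads over AT3G27340 intron 3 itself, the WT libraries held 214 with a shifted end, so that its region is spliced in more than 1 way. The part of these other sites in the change was not tested.

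AT4G10060, annotated as a beta-glucosidase of the GBA2 type, had ratios over intron 12 of 0.683, 0.777 and 0.701 in the mutant, against 0.245, 0.189 and 0.218 in WT. The log2 fold change was 1.53 (SE 0.30, adjusted p = 0.0019). Spliced reads over it were 4, 2 and 3 in the mutant, against 25, 41 and 43 in WT. The RNA level of the gene fell as well, to 30.6 CPM on average in the mutant, against 82.2 CPM in WT. These 4 introns, in SULTR1;2, BGLU8, AT3G27340 and AT4G10060, passed the edgeR test with any 1 library left out.

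The other increases depended on single libraries. RVE8 intron 4, the GC-AG intron shown above, had ratios of 0.606, 0.455 and 0.659 in the mutant and 0.209, 0.171 and 0.241 in WT, with a log2 fold change of 1.36 (SE 0.30, adjusted p = 0.0075). NHX5, an antiporter of endosomes, had 0.668 ± 0.170 over intron 13 in the mutant and 0.229 ± 0.0278 in WT (SD, n = 3 each). PBCP, a phosphatase of photosystem II core proteins, had 0.921 ± 0.159 over intron 7 in the mutant and 0.350 ± 0.0477 in WT. For the introns of NHX5 and PBCP the adjusted p was 0.0417 and 0.0495, and each lost its call when any 1 library was left out. RVE8 intron 4 lost it without acinus-2 pinin-1 replicate 12, at 1.24 on the log2 scale, or without WT replicate 4, at 1.25.

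A pair of increases lay in 5′ UTRs. LPP3, a lipid phosphate phosphatase, had ratios over intron 3 of 0.708, 0.680 and 0.639 in the mutant, against 0.192, 0.351 and 0.265 in WT (log2 fold change 1.22, SE 0.27, adjusted p = 0.0061). It lost its call without WT replicate 2, at 1.01 on the log2 scale. FLK, a KH-domain RNA-binding protein that promotes flowering by lowering the RNA of the repressor FLC, fell outside the 8 largest increases and was named after its values were seen. FLK intron 1 held 143, 124 and 179 reads in the mutant, against 41, 67 and 56 in WT, and its ratio was 0.463 ± 0.0127 in the mutant and 0.213 ± 0.0256 in WT (SD, n = 3 each). Its log2 fold change was 1.07 (SE 0.23, adjusted p = 0.0053), lost without WT replicate 5, and its RNA level was higher by 0.38 on the log2 scale.

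**Figure D4:**
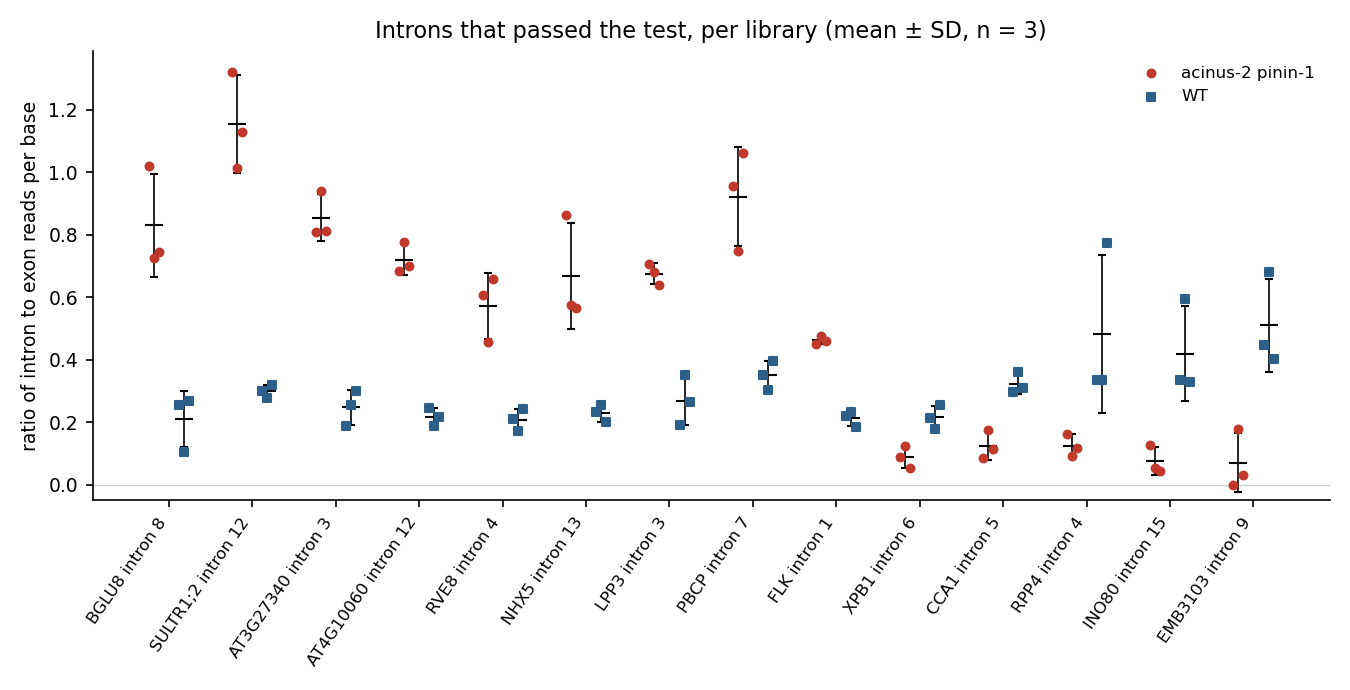
Ratio of intron to exon reads per base in each library for the 14 introns that passed the edgeR test, ordered by log2 fold change; circles are acinus-2 pinin-1 and squares WT, with the mean and SD of 3 libraries in black. In all 14 the 2 genotypes do not overlap, and the WT libraries of RPP4 intron 4, INO80 intron 15 and EMB3103 intron 9 are wide apart.

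The 5 decreases were found in RPP4, CCA1, XPB1, INO80 and EMB3103, with log2 fold changes between -2.71 and -1.24. Mutant ratios lay between 0.0703 and 0.125. INO80, a chromatin remodelling helicase, had a log2 fold change of -2.42 (SE 0.51) over intron 15, and EMB3103, a pentatricopeptide repeat protein, of -2.71 (SE 0.59) over intron 9. Spliced reads over INO80 intron 15 were 14, 8 and 9 in the mutant, against 12, 12 and 12 in WT, and those over EMB3103 intron 9 were 16, 14 and 15 in the mutant, against 13, 12 and 17 in WT, so that the genotypes overlapped in both. The call of INO80 intron 15 was lost without acinus-2 pinin-1 replicate 7 or 12, and that of EMB3103 intron 9 without its replicate 6 or 12. Single libraries also moved the values, with EMB3103 intron 9 at -4.47 without acinus-2 pinin-1 replicate 7 and -2.21 without its replicate 6, and INO80 intron 15 at -3.03 without its replicate 6. XPB1, a helicase of DNA repair, had ratios over intron 6 of 0.0894, 0.124 and 0.0521 in the mutant, against 0.213, 0.180 and 0.254 in WT. Its adjusted p of 0.042 was lost without WT replicate 2 or 5 or acinus-2 pinin-1 replicate 6 or 12.

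RPP4, a disease resistance protein of the TIR-NBS-LRR class, had 4 neighbouring introns that were all lower on average in the mutant. Of its 5 introns, introns 2 to 5 were retained in WT, at ratios between 0.454 and 0.656. Intron 4 held 7, 4 and 7 reads in the mutant, against 10, 17 and 37 in WT, and had a log2 fold change of -1.96 (SE 0.44, adjusted p = 0.0084). Introns 2, 3 and 5 had log2 fold changes of -0.45, -1.39 and -0.91, with adjusted p of 0.63, 0.052 and 0.23. In introns 3, 4 and 5 the mutant libraries were all lower than the WT libraries. Over introns 3 to 5 there was 1 spliced read each in the 6 libraries together. Introns 2 and 3 have a match of 96.8% and 100% elsewhere in the reference, as RPP4 lies among similar genes, so that their reads may stem from more than 1 gene. WT replicate 5 had the most reads in introns 2, 3 and 4, and without it the call of RPP4 intron 4 was lost, as it was without acinus-2 pinin-1 replicate 7 or 12.

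The list of circadian clock genes held 16 genes. Of these, 6 had 8 introns retained in WT: RVE8 introns 1, 4 and 8, CCA1 intron 5, LHY intron 1, ELF3 intron 2, PRR7 intron 3 and TOC1 intron 4. Among the 8, 1 increased (RVE8 intron 4), 1 decreased (CCA1 intron 5) and 6 did not pass the test, with a median log2 fold change of 0.02. Over all tested introns 0.851% increased and 0.051% decreased. Without overlap between the genotypes, 2 were higher and 2 lower in the mutant, against 8.94% and 8.07% of all tested introns. The list was chosen with earlier results of these data known, so that these counts are descriptions. None of the 8 passed with DESeq2. CCA1 and LHY are Myb-like repressors that peak in the morning, and RVE8 is a related activator.

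CCA1 intron 5, in the 5′ UTR, held 6, 10 and 7 reads in the mutant libraries, against 27, 65 and 41 in WT. The ratio was 0.0841, 0.176 and 0.116 in the mutant, against 0.298, 0.361 and 0.309 in WT. The groups did not overlap, and the log2 fold change was -1.41 (SE 0.37, adjusted p = 0.039, edgeR). The call was lost without any 1 of the libraries other than WT replicate 2. Spliced reads over the intron itself were 1 in the mutant and 7 in WT, while 222 WT reads joined more distant exons over it. The RNA level of CCA1 was lower as well, at 43.0 CPM in the mutant and 79.6 CPM in WT.

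LHY intron 1, also in the 5′ UTR, had ratios of 0.193, 0.251 and 0.199 in the mutant, against 0.442, 0.380 and 0.394 in WT. All mutant libraries were lower, but the log2 fold change of -0.89 (SE 0.28) did not pass the test (adjusted p = 0.13, edgeR). The RNA level of LHY was 81.9 CPM in the mutant and 149 CPM in WT. In RVE8 the 3 introns did not move together: intron 4 rose, while intron 1 was higher in every mutant library at a log2 fold change of 0.24 (SE 0.28, adjusted p = 0.82) and intron 8, in the 3′ UTR, was at -0.51 (SE 0.32, adjusted p = 0.59). ELF3 intron 2, with the most WT reads of the list, had ratios of 0.230 ± 0.0148 in the mutant and 0.269 ± 0.0281 in WT (SD, n = 3 each). Here and in the introns of PRR7 and TOC1 the genotypes overlapped. ELF3 is a part of the evening complex, and PRR7 and TOC1 are pseudo-response regulators that repress CCA1 and LHY. RVE8 was the gene of the list that was called lower in RNA level, at 18.9 CPM in the mutant and 38.2 CPM in WT. JMJD5 intron 2, named after its values were seen, increased by 1.04 on the log2 scale (adjusted p = 0.038) but stood at a WT ratio of 0.175 and thus was not among the introns retained in WT.

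**Figure D5:**
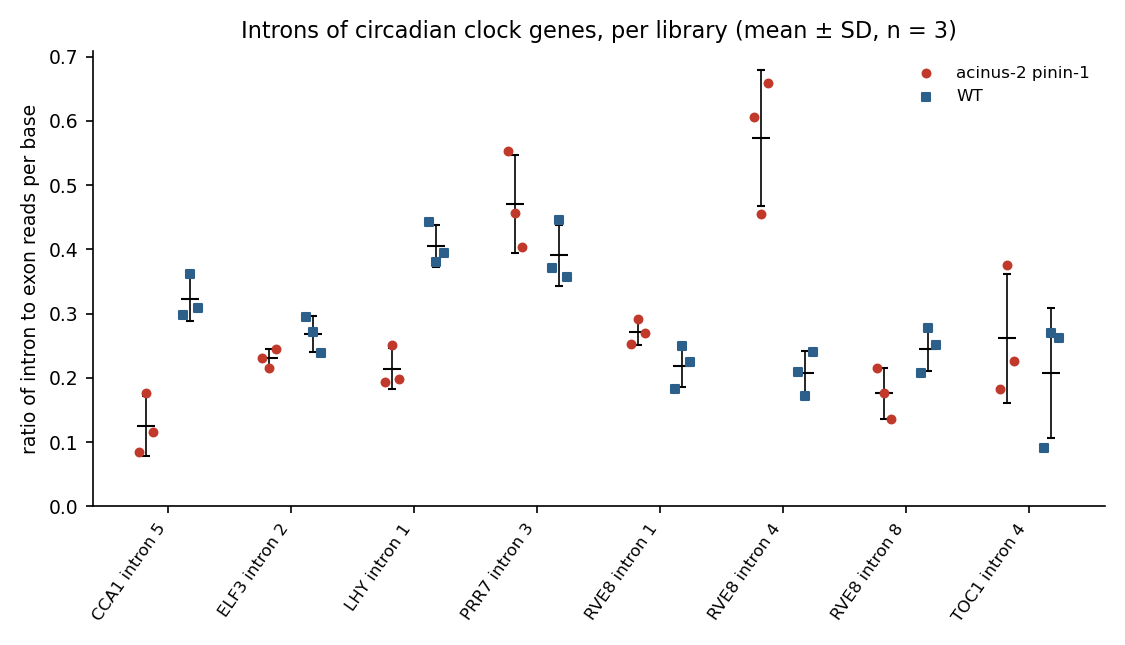
Ratio of intron to exon reads per base in each library for the 8 introns of circadian clock genes that were retained in WT; circles are acinus-2 pinin-1 and squares WT, with the mean and SD of 3 libraries in black. CCA1 intron 5 and LHY intron 1 are lower in every mutant library and RVE8 introns 1 and 4 are higher, while the 2 genotypes overlap in the other introns.

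SR proteins bind exons and recruit the spliceosome, and many of their own genes make spliced forms with a stop codon. Of the 20 SR genes listed, 6 held 9 introns retained in WT: SR45a introns 4 and 5, SCL33 introns 3 and 4, SR34a intron 2, SR34b intron 10, RS2Z32 intron 3 and RS40 introns 3 and 4. None of the 9 passed the edgeR or the DESeq2 test, and their median log2 fold change was -0.24. At an unadjusted p under 0.05 in edgeR, 1 was higher and 1 lower, against 6.22% and 4.88% of all tested introns. SCL33 intron 3, with the most WT reads of the list, had ratios of 0.412, 0.306 and 0.297 in the mutant, against 0.278, 0.307 and 0.250 in WT, and the groups overlapped. SR34b intron 10 had 0.202, 0.301 and 0.341 in the mutant, against 0.633, 0.538 and 0.525 in WT. These did not overlap, but its log2 fold change of -0.96 (SE 0.32) did not pass (adjusted p = 0.15). SR34b RNA was also lower, at 7.92 CPM in the mutant and 12.3 CPM in WT. RS40 intron 3 had 0.453, 0.349 and 0.287 in the mutant, against 0.173, 0.245 and 0.324 in WT, with overlap between the groups. RS31 intron 2 and RS41 intron 3, named after their values were seen, stood at WT ratios of 0.150 and 0.195, under the limit of the rule. Both were lower at an adjusted p under 0.05 in edgeR, at log2 fold changes of -0.92 and -1.89. The change of RS31 intron 2 was thus under 2-fold.

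Of 12 further genes of the spliceosome and of RNA-binding proteins, 3 held 1 such intron each: GRP8 intron 1, PTB3 intron 12 and U2AF65B (AT1G60900) intron 4. None passed either test, with 1 lower at an unadjusted p under 0.05 in edgeR, against 4.88% of all tested introns. U2AF65B binds the 3′ splice site, and its intron 4 had ratios of 0.314, 0.262 and 0.321 in the mutant, against 0.254, 0.233 and 0.210 in WT. The groups did not overlap, at a log2 fold change of 0.33 (SE 0.23, adjusted p = 0.65). PTB3 intron 12, in a gene of a polypyrimidine tract-binding protein, had no spliced read in any library. Of the 10 genes named in the study, only AtPININ held such an intron, intron 9. The pinin-1 T-DNA lies within this gene, so that a change in splicing and an effect of the insertion cannot be told apart for this intron.

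Of the 25 genes with 3 or more introns retained in WT, 21 had at least 3 tested. In 3 of these every tested intron had a log2 fold change above 0 and in 5 below 0. EDM2, a PHD finger protein of disease resistance, belongs to the 3 genes, with introns 1, 9 and 10 at 0.95, 0.93 and 0.65 (adjusted p between 0.35 and 0.63). EDM2 intron 9 had ratios of 1.14, 0.980 and 0.861 in the mutant, against 0.596, 0.474 and 0.483 in WT. SUA, an RNA-binding protein that regulates splicing in seeds, had 4 such introns, with log2 fold changes between -0.14 and 0.73. The helicase gene UAP56b had introns 7, 8 and 9, at -0.05, 0.15 and 0.13, with 0 to 3 spliced WT reads each. MAF1, a MADS-box relative of FLC, had introns 2, 3 and 7, all below 0, with intron 3 at -0.81 (SE 0.36, adjusted p = 0.36).

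In AT4G05631, an uncharacterized gene with 9 introns, introns 4 to 9 were all retained in WT. Their WT ratios lay between 0.393 and 0.837, and none had a spliced read in any WT library. Intron 5, shown above, had ratios of 0.396, 0.396 and 0.391 in the mutant, against 0.365, 0.384 and 0.416 in WT. Its 2 neighbouring exons are 40 bases long together, and the part of exon length in its ratio was not tested. The 6 log2 fold changes lay between -0.03 and 0.16. AT3G63450, annotated as an RNA-binding protein, and the genes AT1G34315 and AT1G66880 held 5 such introns each, and AT5G26290 held 4. The other genes with 3 were AT1G15165, BGLU5, AT1G77800, AT2G02770, AT2G25590, AT3G27610, AT3G61010, AT3G61420, AT4G13572, MIR162a, which makes a microRNA, AT5G27730, AT5G28320, AT5G28400 and AT5G53010. In 5 of the 25 genes, at least 1 of the introns has a near-identical copy elsewhere in the reference, and in AT5G28320 and AT5G28400 all 3 do.

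The RNA level of the genes was compared as well, in edgeR on 730 of the 731 genes. At an adjusted p under 0.02 and a fold change above 2, 15 (2.05%) were higher and 39 (5.34%) lower in the mutant libraries, against 4.29% and 4.88% of all 20962 tested genes. Among the 11235 genes with a tested intron the shares were 2.22% and 2.2%. These 730 genes had a median of -0.10 on the log2 scale, against 0.00 over all genes. The rule asks for reads in WT and thus used the WT level of these genes, so that the counts are descriptions. PBCP, RVE8 and AT4G10060, with an increased intron, were among the 39 lower genes, and none of the 14 introns lay in a gene called higher. The largest falls were those of AT4G13575, AT4G13572 and HTA4, neighbouring loci, with log2 fold changes of -3.86, -3.39 and -2.91. Their introns had too few reads in the mutant for a test.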

How the data were processed

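The genotype label of each of the 6 RNA-seq libraries set its group. The tables were made by the authors with RACKJ from reads aligned to TAIR10. The version of RACKJ is not given in the sources used here. The submitters' processing notes also name STAR. The deposited expected counts give reads per gene, exon and intron, and the deposited count of spliced reads gives each exon pair. Another deposited column gives the fraction of a feature's reads that are shared with other features, and reads from a near-identical copy may escape it. The deposited RPKM was used for the total of mapped reads, between 23104163 and 33595940 per library. The members and gene lists were chosen with earlier results of these data known.

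The ratio is intron reads per base over reads per base of the 2 neighbouring exons. For the test, a spliced read counted once, and counts were rounded. Introns with 10 or more reads over the 6 libraries and 10 or more exon reads in each were fitted together in edgeR 4.0.16 (R 4.3.3), with 1 term per library, 1 for intron against exon and 1 for its change with genotype, and with Benjamini-Hochberg adjustment over all of them. Genes were tested in edgeR with filterByExpr and TMM. DESeq2 1.42.0 served as an alternative. Others changed the limits of the rule, the reference reads, the filters and thresholds, and left out each library in turn. The scripts were tested on simulated data. Introns were placed on TAIR10.1 with Python 3.11.15, which also gave symbols and sequences, and figures were drawn with matplotlib 3.10.9. A copy elsewhere is a blastn 2.17.0 match of 95% identity or more over at least 100 bases or 90% of the intron.

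The introns named are the 6 with the most WT reads, the 4 highest and 4 lowest WT ratios with the 2 introns outside each limit, up to 8 increases and 8 decreases with an adjusted p under 0.05, no overlap and 20 or more reads on average where retention was higher, all members in the lists with values for 3 of each, genes with 3 or more members, and the 4 with the most WT reads among those that keep the frame. CPM values use reads on genes with TMM factors. P-values cover these libraries alone.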

Additional observations from a re-analysis of the deposited data

How the results depend on the processing

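A minimum of 60 or 15 WT reads gave 393 or 1541 introns, and a ratio from 0.1 or from 0.3 gave 1463 or 553. With the ratio from 0.1, 23 increases and 9 decreases among 1406 tested introns met all thresholds (24 and 10 at the adjusted p alone). With the ratio from 0.3 there were 2 increases and 4 decreases among 509 tested introns. Over all tested introns the same thresholds call 0.851% and 0.051% (0.961% and 0.18% at the adjusted p alone). The counts thus depend on the limit and are descriptions. With DESeq2 there were 0 in each direction. With spliced reads as the reference there were 24 increases and 3 decreases among 640 tested introns (25 and 3 at the adjusted p alone). Without a filter beyond 1 intron read there were 3 decreases. An unadjusted p gave 14 and 21, or 45 and 44 without the other thresholds. Leaving out 1 library gave between 6 and 7 increases and between 0 and 6 decreases, a median between -0.00 and 0.02, between 836 and 939 introns, and between 37 and 41 lower and between 12 and 18 higher genes.

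The median log2 fold change of -0.01 became -0.033 at 15 reads, 0.10 with spliced reads, and 0.060 and 0.092 with WT replicate 4 or 5 held out. All 14 introns kept their direction in every fit that held them (12 of the 14 with spliced reads). With DESeq2 genes gave the same 39 and 15. Chosen after the data were seen, leaving out introns with a copy elsewhere kept 803 introns and the counts of 9 and 5, and keeping introns with 10 or more spliced WT reads gave 9 and 3. No paired analysis was possible because the genotypes share no replicate number. Low counts limit most introns: at a median of 55 WT reads, no change of under 2-fold was called among the introns retained in WT with exon reads as the reference.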

Other observations

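By words in the annotated product, a grouping chosen after the products were seen, 28 of the 731 genes (3.83%) encode proteins of splicing or RNA binding, against 1.89% of the genes with a tested intron. Genes of disease resistance proteins made up 2.46% (18 genes), against 0.693%, ribosomal proteins 0.137% (1 gene), against 2.15%, pentatricopeptide repeat proteins 0.821% (6 genes), against 0.338%, and protein kinases 5.06% (37 genes), against 5.71%. The 35 introns of the splicing and RNA-binding group had a median log2 fold change of 0.02, with 1 increase and no decrease in edgeR (2 higher and 2 lower at an unadjusted p under 0.05, none called by DESeq2). Over all tested introns, 6.22% were higher and 4.88% lower at an unadjusted p under 0.05 in edgeR. Of the 21 tested introns in genes of disease resistance proteins, 7 were lower in every mutant library and 2 higher, against 8.07% and 8.94% of all tested introns, and 3 of the 7 were RPP4 introns 3, 4 and 5. The median was 0.10, with no increase in edgeR and 1 decrease, that of RPP4 intron 4 (0 higher and 5 lower at an unadjusted p under 0.05, none called by DESeq2).

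The 9 increases had median splice site scores of 7.08 at the 5′ site and 4.13 at the 3′ site, against 5.94 and 5.65 for the 231 annotated introns not retained in WT by the rule that were higher at an adjusted p under 0.05 alone. Of the 462 introns that met the limits only in the acinus-2 pinin-1 libraries, 144 had 30 or more WT reads at a ratio under 0.2 and 294 had fewer than 30 WT reads. These introns were chosen by their mutant values, so that their change is no result.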
